A study of Mus musculus with 270 samples.

Results

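The hearts of male wild-type C57BL/6J mice at 8 months (M, n = 8) were compared with those at 3 M (n = 7), as 1 mRNA library per mouse. The 15 libraries are all those of the heart table at these ages, out of 45 heart libraries and of 270 libraries of 6 organs at 6 ages from 3 to 26 M. No mouse carried an allele or a treatment, and all came as a single cohort from 1 supplier. Both ages are adult, so the comparison asks what differs in the heart between young adulthood and the start of mid-life, and the other ages serve only to read it.

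The ventricular cardiomyocyte contracts through sarcomeres, is triggered by calcium released from the sarcoplasmic reticulum, and lives mostly on fatty acids burnt in its many mitochondria. Around it sit endothelial cells, fibroblasts that lay down collagen, smooth muscle, resident macrophages and the blood left in the chambers. Ageing of the mouse heart is known for hypertrophy, a return of fetal genes such as *Nppa* and *Myh7*, fibrosis and more immune cells. Bulk RNA cannot tell fewer cells of a type from less RNA per cell, and this holds for every value below.

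No gene passed the test between 8 M and 3 M. Values are reads per gene divided by a size factor of each library from DESeq2 (normalized counts). Differences are 8 M minus 3 M on the log2(normalized count + 1) scale, with the SE of limma's moderated test. Of 15842 genes tested, 0 had a Benjamini-Hochberg adjusted p under 0.05 by limma, and the smallest adjusted p was 0.99985. At an unadjusted p under 0.05 there were 495 genes (3.12%), 324 higher (2.05%) and 171 lower (1.08%) at 8 M. edgeR and DESeq2 on the recovered reads also called 0 genes, with smallest adjusted p of 0.344 and 0.113 and with 690 and 727 genes at an unadjusted p under 0.05. The direction of those unadjusted genes turned with the method, since edgeR put 145 higher and 545 lower, DESeq2 190 and 537, quantile normalization 208 and 199, and library weights 724 and 607. With the sets of mice that split on the first principal component as a block, limma called 0 genes and put 1032 (6.51%) at an unadjusted p under 0.05, 695 higher (4.39%) and 337 lower (2.13%). Those sets were drawn from the same values that were then tested. A smaller residual spread follows from that, so the 1032 add no support. The count with age alone also rested on single libraries, being 234 without 3M replicate 6 and 916 without 3M replicate 5.

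The absence of calls had a measurable width. Across genes the median SE was 0.27, and the 95% interval of the difference lay within 1 log2 unit of 0, a change of less than 2-fold, in 11122 genes (70.2%). That share was 8.00% among genes with a mean under 10 normalized counts, 33.4% from 10 to 30, 72.5% from 30 to 100, 92.0% from 100 to 300, 95.4% from 300 to 1000 and 92.8% above 1000. Most well-expressed heart genes were therefore bounded to under 2-fold, whereas most intervals of genes of few reads were wider. The mean was above 0 in 8848 genes (55.9%) and the median difference was 0.03; without 3M replicate 6 these values were 7926 genes (50.0%) and 0.00.

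Libraries of the same age differed widely among themselves. Depth was 5134683 to 11157535 reads on genes at 3 M and 5699387 to 11144311 at 8 M. The tissue label held in all 15, since 8 cardiomyocyte markers, the list of 10 less *Actc1* and *Pln*, which are listed at 0, took 4.29% to 10.2% of the reads at 3 M and 5.11% to 10.5% at 8 M. 3M replicate 6 stood apart: it was the deepest at 3 M, had a read on 17384 genes against 19414 to 20930 in the other 14, and gave 8.01% of its reads to its 10 largest genes. On the first principal component (30.5% of the variance over all 45 libraries) 8 libraries lay below 0 and 7 above. The lower side held 4 of 7 libraries at 3 M and 4 of 8 at 8 M. Summed atrial muscle markers were 7203 to 18873 normalized counts below 0 and 2758 to 6953 above it, and skeletal muscle fibre markers 661 to 1633 and 2503 to 5887, so neither range overlapped. Cardiomyocyte markers were also disjoint, at 691920 to 943630 below 0 and 335670 to 548030 above it. So were macrophage markers (2920 to 3761 and 1518 to 2185) and those of smooth muscle and pericytes (13808 to 17009 and 9901 to 12471). The second component (19.7%) held apart the 4 libraries whose column name carries an unexplained suffix b, 2 of each age. Spermatid and spermatocyte transcripts summed to 348 to 427 in those 4 and to 2262 to 6531 in the other 11. All 12 tested genes of that list had a higher mean at 8 M, with a median of 0.60 that ran from -0.22 to 1.36 when each library was left out. For 9 of the 15 libraries the table labelled liver holds the same reads gene by gene for the same mouse, and the heart label was kept because of the cardiomyocyte markers. For 3M replicates 6 and 7 and 8M replicates 1, 2 and 5 the reads differ. There the heart and liver tables still correlated at r = 0.982 to 0.9997 on the log2(normalized count + 1) scale. For 8M replicate 3 r was 0.860, and at 20 M it was 0.843 to 0.898.

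The contractile and metabolic genes of the cardiomyocyte were close in the 2 age groups. Of 17 tested sarcomere genes 4 were higher and 13 lower at 8 M, none at an unadjusted p under 0.05, the median difference was -0.06 and all 17 intervals lay within 1 log2 unit. *Myh6*, the adult alpha myosin heavy chain, ranged from 117110 to 377800 normalized counts at 3 M (median 302550) and from 138580 to 395100 at 8 M (median 258090). Its groups overlapped almost wholly, and the difference was -0.05 (SE 0.33), of either sign depending on the scaling. *Myh7*, the slow beta myosin of the fetal heart, had medians of 4776 and 4863 normalized counts, with ranges of 2573 to 5773 at 3 M and 3440 to 7426 at 8 M, and differed by 0.11 (SE 0.19).

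Calcium and ion handling gave the same picture, with 10 of 18 tested genes higher, a median of 0.02 and all 18 intervals within 1 log2 unit. *Atp2a2*, the pump that returns calcium to the sarcoplasmic reticulum, ranged from 15288 to 68516 at 3 M (median 37299) and from 22550 to 76025 at 8 M (median 38447), a difference of 0.05 (SE 0.32). Nuclear-encoded subunits of the respiratory chain, which turns the electrons of fuel into ATP, were higher in 29 of 78 with a median of -0.06, and 74 intervals lay within 1 log2 unit. The lower mean of most of these subunits and of the sarcomere genes did not hold for every choice of libraries. The medians ranged from -0.16 to 0.05 (respiratory chain) and from -0.21 to 0.03 (sarcomere) when each library was left out in turn, the lowest without 3M replicate 6.

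Genes of fuel use had no member at an unadjusted p under 0.05 in the limma fit with age alone. With the sides of the first principal component as a term there was 1, *Slc2a1*, against 4.39% of all genes on the higher side. Among fatty acid genes 11 of 23 tested were higher (median -0.02), and among genes of glucose use 14 of 22 (median 0.05). The intervals lay within 1 log2 unit in 18 of the 23 and 19 of the 22, and the medians were -0.11 and -0.10 without 3M replicate 6. *Slc2a1*, the glucose transporter GLUT1, had the largest difference of the glucose list, 0.80, with a 95% interval from -0.47 to 2.06. *Pdk4*, the kinase that shuts glucose carbon out of the mitochondrion, ranged from 2302 to 8811 at 3 M (median 3355) and from 2230 to 6953 at 8 M (median 3639). The groups overlapped and the difference was -0.12 (SE 0.27). The 13 genes of the mitochondrial genome and other list members, 27 in all and among them *Actc1*, *Tnnc1*, *Pln*, *Cox6a2* and *Cpt1b*, are listed at exactly 0 in all 45 heart libraries. Cardiac genes such as these are abundant in any heart, so the zeros give no level and were not compared.

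The genes of the loaded or fetal heart showed no common direction, with 5 of 11 tested higher and a median of -0.01. *Nppa*, atrial natriuretic peptide, ranged from 934 to 8566 at 3 M (median 3361) and from 842 to 8953 at 8 M (median 3020), and differed by -0.19 (SE 0.53). *Nppb*, brain natriuretic peptide, had medians of 986 and 1075 with ranges of 879 to 1967 and 477 to 1493, and differed by -0.12 (SE 0.24). *Acta1*, the skeletal actin of the fetal heart, had means of 1890 ± 1599 (SD, n = 7) and 3040 ± 2327 (SD, n = 8) normalized counts, and is itself 1 of the skeletal fibre markers whose sum differed between the sides of the first principal component.

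Collagens and other matrix genes, laid down by fibroblasts, were higher in 18 of 30 tested with a median of 0.03, and 28 intervals lay within 1 log2 unit. *Col1a1* ranged from 557 to 1059 at 3 M (median 836.5) and from 562 to 1144 at 8 M (median 839), a difference of 0.06 (SE 0.22). *Col3a1* ranged from 1684 to 3072 (median 2642) and from 2016 to 3409 (median 2302), a difference of 0.00 (SE 0.21). *Postn*, a matricellular protein of activated fibroblasts, had medians of 621 at both ages and differed by 0.12 (SE 0.36). The 2 collagens overlapped at the 2 ages over nearly their whole ranges. Genes of growth and cell division were higher in 13 of 18, with a median of 0.18, or 0.10 without 3M replicate 6. *Mki67*, a marker of cycling cells, had medians of 116 and 83.7 with ranges of 37.2 to 147 and 57.2 to 173, and differed by 0.05 (SE 0.38). *Peg3*, an imprinted zinc finger gene of postnatal growth, was the 1 of the 18 at an unadjusted p under 0.05. It was lower at 8 M, as were 1.08% of all genes at that p. It ranged from 169 to 390 at 3 M (median 325) and from 134 to 304 at 8 M (median 203). All 8 libraries at 8 M lay under the 3 M median, but the ranges overlapped and the difference was -0.48 (SE 0.21; exact permutation test, two-sided, p = 0.0486; adjusted p = 0.99985). List members with an unadjusted p under 0.05 were named by it, here and below. An exact p on the same values adds no support.

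**Figure D1:**
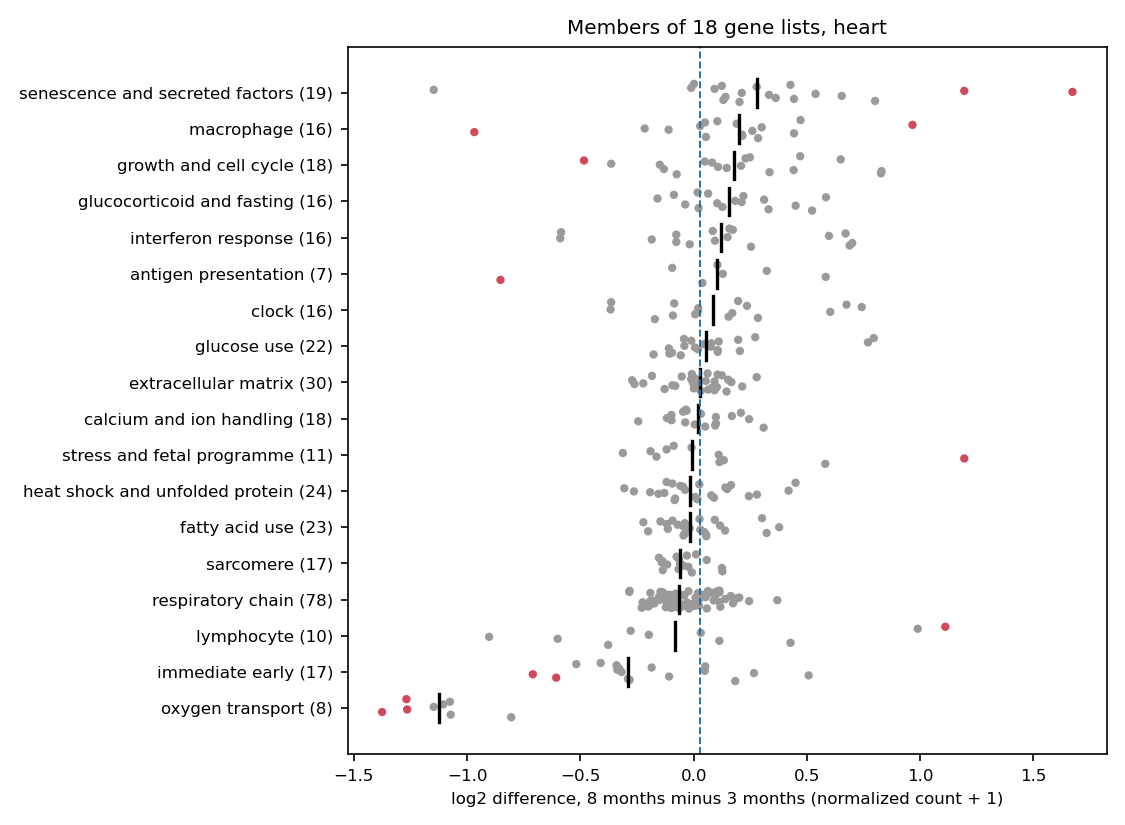
Differences (x, log2, 8 M minus 3 M) of the tested members of 18 gene lists (y, number tested in brackets), each point 1 gene, red for an unadjusted p under 0.05, black ticks for list medians and the dashed line for the median of all tested genes (0.03). Sarcomere, respiratory chain and calcium genes crowd around 0, and the oxygen transport genes all lie to the left.

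The oxygen transport list had the median farthest from 0. It holds the globins and other genes of red blood cells, whose precursors fill themselves with haemoglobin mRNA and whose youngest circulating forms still carry it. All 8 tested members were lower at 8 M, with a median of -1.13 against 0.03 for all tested genes, and 3 of the 8 had an unadjusted p under 0.05 against 1.08% of all genes on the lower side. The erythroid markers summed to 4326 to 55551 normalized counts at 3 M (median 23744) and to 4566 to 20554 at 8 M (median 9196). The members come from the same cells and libraries, so they are not 8 separate observations.

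*Hba-a1*, an alpha globin (chromosome 11, 32283511 to 32284465, plus strand, GRCm38), was at 7357, 5400, 14527, 9311, 1560, 20687 and 6249 normalized counts in 3M replicates 1 to 7. In 8M replicates 1 to 8 it was at 1924, 5386, 1286, 4698, 6620, 1530, 3450 and 1757. The 4 highest libraries were all of 3 M, every 8 M library lay under the 3 M median, and 3M replicate 5 lay among the lowest of 8 M. The difference was -1.38 (SE 0.54; exact permutation test, two-sided, p = 0.0277; adjusted p = 0.99985). *Hba-a2*, its near-identical neighbour, with which it may share reads, differed by -1.26 (SE 0.57).

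*Hbb-bs*, a beta globin, had medians of 9326 and 3165 with ranges of 1108 to 21278 and 1191 to 7386, and differed by -1.15 (SE 0.63; exact permutation test, two-sided, p = 0.0908). The groups overlapped in each of the 8 genes. *Hbb-bt*, the other beta globin, *Slc4a1*, the anion exchanger band 3, and *Bpgm*, which makes the 2,3-bisphosphoglycerate that lowers the oxygen affinity of haemoglobin, had differences of -1.11, -1.08 and -0.81. The list median stayed negative when each of the 15 libraries was left out, from -1.55 without 3M replicate 5 to -0.88 without 3M replicate 3, and was -0.98 without 3M replicate 6. *Rhd*, the Rh blood group gene and also a red cell gene, had the opposite sign, as given below.

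At the other ages the alpha globin *Hba-a1* had a median of 2327 at 5 M and of 2435 at 14 M. It was 946 in the 20 M group and 2639 in that of 26 M, so the 3 M median of 7357 was the highest of the 6. At 26 M the 5 libraries ran from 648 to 17402, a range wider than that of 8 M. Between 14 M and 5 M, which share no library with this comparison, *Hba-a1* differed by 0.15 (SE 0.49). In skeletal muscle of the same 15 mice *Hba-a1* differed by 0.18 (SE 0.61) and *Hbb-bs* by 0.30 (SE 0.55), and the difference between the organs was not tested.

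Of the markers of tissues near the heart, those of lung and liver were lower together with the oxygen transport genes and those of fat and mesothelium were not. All 8 lung epithelium markers were lower at 8 M (median -0.99, 0 at an unadjusted p under 0.05), with sums of 2819 to 23120 at 3 M and 2534 to 9257 at 8 M. Without 3M replicate 6, which held the 23120, their median was -0.48. *Sftpc* and *Sftpb*, surfactant proteins of the alveolus, had means of 297 and 90.6 at 3 M and of 110 and 36.5 at 8 M. These means are small beside the sums, which therefore rest mostly on the other markers of the list. Those are *Sftpa1*, *Sftpd*, *Scgb1a1*, *Ager*, *Hopx* and *Cldn18*. How much of the sums came from lung tissue and how much from cells of the heart was not tested. All 6 tested hepatocyte markers were also lower (median -0.70, sums of 30.8 to 866 and 20.7 to 230), with a median of -0.38 without 3M replicate 6. Of these 6, 1 had an unadjusted p under 0.05, against 1.08% of all genes on the lower side. The hepatocyte sums were 168 to 866 in the 4 libraries with suffix b and 20.7 to 145 in the other 11, without overlap. The adipocyte markers were higher in 5 of 8 (median 0.30, 0.01 without 3M replicate 6) and those of mesothelium and thymus remnant in 2 of 4 (median 0.15, -0.07 without it). 3M replicate 6 also had the highest erythroid sum, 55551, but 3M replicate 3 came next with 52840 and had a lung sum of 4411. Whether blood or other tissue taken with the organ has a part in the oxygen transport result was not tested.

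**Figure D2:**
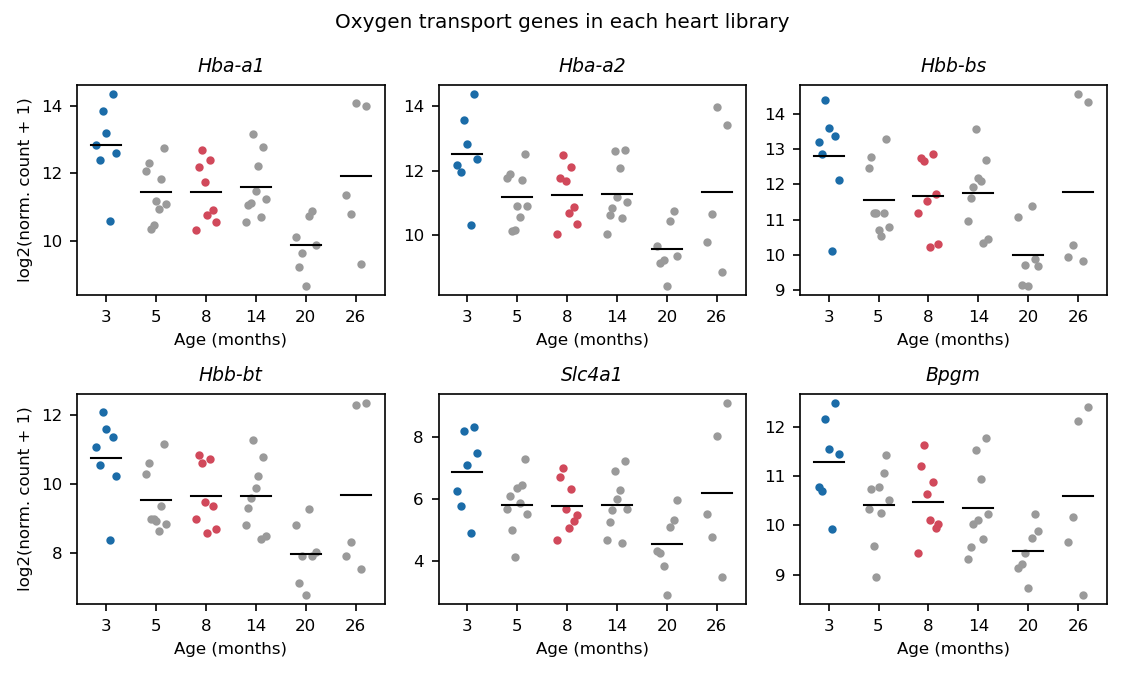
Levels (y, log2 of normalized count + 1) of 6 oxygen transport genes against age (x, months), each point 1 heart library and black bars the mean of each age, with 3 M in blue, 8 M in red and other ages in grey. In each panel the 3 M mean lies above the 8 M mean, and at least 1 library of 3 M lies within the range of 8 M.

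Immediate early genes, transcription factors and regulators switched on within minutes of a stimulus, were lower in 12 of 17 with a median of -0.29. *Egr1* ranged from 338 to 1043 at 3 M (median 574) and from 276 to 488 at 8 M (median 378). All 8 libraries at 8 M lay under the 3 M median, and the difference was -0.61 (SE 0.26; exact permutation test, two-sided, p = 0.0168). *Fos*, a subunit of AP-1, ranged from 240 to 1546 (median 490) and from 158 to 366 (median 309), a difference of -0.71 (SE 0.32; exact permutation test, two-sided, p = 0.0426), or -0.42 without 3M replicate 6, which held the 1546. Both had an adjusted p of 0.99985 by limma. The other members included *Nr4a1* at -0.41 (SE 0.22), *Junb* at -0.33 (SE 0.24), *Dusp1* at -0.29 (SE 0.41), *Klf4* at 0.05 (SE 0.22) and *Atf3* at 0.18 (SE 0.49). The list median was -0.16 without 3M replicate 6. At an unadjusted p under 0.05 there were 2 members lower, against 1.08% of all genes. With the sides of the first principal component as a term in the fit there were 5 lower, against 2.13% of all genes. The sides were drawn from the same values, so the rise adds no support. That term also raised counts in other lists, where 4.39% of all genes were higher. There were 3 higher and 1 lower of 16 macrophage genes, and 4 higher and 0 lower of 19 senescence genes. In skeletal muscle of the same mice *Egr1* differed by -0.53 (SE 0.37) and *Fos* by -0.43 (SE 0.42), and between 14 M and 5 M hearts by -0.22 (SE 0.24) and -0.40 (SE 0.29). The 4 values had the sign of the heart difference at 8 M, and each was under 2 SE.

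Clock genes and targets of glucocorticoids had no member at an unadjusted p under 0.05 in the limma fit with age alone. Of 16 tested clock genes 11 were higher (median 0.09), and of 16 glucocorticoid and fasting genes 13 (median 0.16). Over all tested genes 55.9% were higher, with a median of 0.03. The clock median was 0.02 without 8M replicate 6 and the glucocorticoid median 0.08 without 8M replicate 8, each the lowest over the single omissions. With the sides of the first principal component as a term, 1 clock gene was higher and 1 lower at that p. Of the glucocorticoid genes 2 were higher and 0 lower, against 4.39% and 2.13% of all genes. *Dbp*, a direct output of the clock, ranged from 22.5 to 99.4 at 3 M (median 30.9) and from 46.3 to 112 at 8 M (median 66.9). All 8 libraries at 8 M exceeded the 3 M median, and the difference was 0.60 (SE 0.41; exact permutation test, two-sided, p = 0.122). *Arntl*, the clock activator BMAL1, had medians of 446 and 390 and differed by -0.17 (SE 0.17), and *Per2*, its repressor, by -0.09 (SE 0.32). Heat shock and unfolded protein genes were split, 12 of 24 higher, with a median of -0.02.

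Macrophage genes were higher in 13 of 16 with a median of 0.20, but the median was -0.03 without 3M replicate 6. *Fcgr1*, the high-affinity IgG receptor, ranged from 1.40 to 33.8 at 3 M (median 20.7) and from 19.5 to 36.1 at 8 M (median 24.5), with the 1.40 in 3M replicate 6, and differed by 0.97 (SE 0.39) with that library and by 0.55 without it. *Cd14*, the lipopolysaccharide co-receptor, had the opposite sign, from 15.9 to 42.1 (median 30.0) to 6.80 to 27.3 (median 15.7), a difference of -0.97 (SE 0.41; exact permutation test, two-sided, p = 0.0197). The summed macrophage markers overlapped, 1518 to 3567 at 3 M and 2043 to 3761 at 8 M. Antigen presentation by MHC class II was higher in 5 of 7 (median 0.11, -0.03 without 3M replicate 6), interferon response genes in 10 of 16 (median 0.12, -0.07 without 3M replicate 6) and lymphocyte genes in 5 of 10 (median -0.08, 0.09 without 3M replicate 6). *Cd74*, the invariant chain of MHC class II, had medians of 434 at both ages, whereas *Ciita*, the master activator of that class, had medians of 15.3 and 10.9 and differed by -0.85 (SE 0.41; exact permutation test, two-sided, p = 0.0979). *Trbc2*, a T cell receptor constant region, had medians of only 4.60 and 7.94 and differed by 1.11 (SE 0.49).

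The list of senescence genes holds cell cycle inhibitors, chemokines, their receptors and other genes that the study followed in the ageing heart, the globin *Hbb-bs* of the oxygen transport list among them. It was higher in 17 of 19 with a median of 0.28, and its median was 0.16 without 3M replicate 6. The list was partly picked by the study from these samples, so its direction is not independent evidence, and *Hbb-bs* was 1 of its 2 lower members. *Cdkn1a*, which encodes the cell cycle inhibitor p21, ranged from 142 to 293 at 3 M (median 217) and from 167 to 396 at 8 M (median 291), a difference of 0.36 (SE 0.23; exact permutation test, two-sided, p = 0.133). *Cdkn2a*, which encodes p16 and p19, had medians of 1.88 and 3.43 normalized counts and differed by 0.14 (SE 0.53). *Gdf15*, a stress-induced hormone of the TGF-beta family, ranged from 0 to 6.91 (median 1.40) and from 0.939 to 13.4 (median 5.65), and differed by 1.19 (SE 0.48; exact permutation test, two-sided, p = 0.0550). *Ereg*, the EGF receptor ligand epiregulin, ranged from 0 to 9.32 (median 1.42) and from 2.82 to 16.9 (median 6.84), and differed by 1.67 (SE 0.56; exact permutation test, two-sided, p = 0.0165). All 8 libraries at 8 M exceeded the 3 M median of *Ereg*, yet the groups overlapped and both genes rest on a handful of reads per library.

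Among single genes, the 10 higher and the 10 lower at 8 M with the smallest p are described without support from their p, since they were chosen by it. *Cd209f*, a C-type lectin of the DC-SIGN family of myeloid cells (chromosome 8, 4102787 to 4105835, minus strand, GRCm38), ranged from 1.40 to 56.3 at 3 M (median 43.0) and from 54.3 to 109 at 8 M (median 84.2). Only 1 library of 3 M reached the lowest of 8 M, and the difference was 1.41 (SE 0.44), or 0.80 without 3M replicate 6. *H2-Q7*, a non-classical MHC class I gene of a family with close copies (chromosome 17, 35439155 to 35443773, plus strand), ranged from 54.6 to 160 (median 122) and from 120 to 254 (median 171), a difference of 0.73 (SE 0.22). It was the gene of the 20 whose skeletal muscle difference came nearest in size and sign, 0.70 (SE 0.26). *Ficd*, which attaches AMP to the chaperone BiP, differed by 0.71 (SE 0.21), and *Usp27x*, an X-linked deubiquitinase, by 1.28 (SE 0.37) at medians of 8.52 and 15.0.

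*Rhd* had medians of 25.7 and 54.0 with ranges of 4.91 to 53.1 and 24.4 to 83.0, a difference of 1.01 (SE 0.32), opposite in sign to the 8 oxygen transport genes above. The other higher genes were *Slc17a7*, the vesicular glutamate transporter VGLUT1, at 0.62 (SE 0.19), *Lins1* at 1.12 (SE 0.36), *Ankrd34a* at 1.43 (SE 0.46), *Ptrhd1* at 1.21 (SE 0.39) and *Lrrn4cl* at 0.65 (SE 0.21). In 7 of the 10 the lowest 3 M library was 3M replicate 6. Without it the differences of all 10 were 0.38 to 1.18, against 0.62 to 1.43 with it.

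On the lower side, *Ocel1*, a gene with an occludin and ELL domain (chromosome 8, 71371298 to 71379361, plus strand), ranged from 33.6 to 80.0 at 3 M (median 49.4) and from 15.8 to 42.2 at 8 M (median 27.2). All 8 libraries at 8 M lay under the 3 M median and the ranges overlapped only between 33.6 and 42.2, a difference of -0.79 (SE 0.20). *Depdc1b*, a gene of dividing cells (chromosome 13, 108316332 to 108407782, plus strand), ranged from 6.91 to 97.5 (median 13.1) and from 1.36 to 8.45 (median 5.70), a difference of -1.46 (SE 0.39), or -1.04 without 3M replicate 6, which held the 97.5. It had the smallest adjusted p in edgeR and in DESeq2, given above. *Spns2*, the transporter that releases sphingosine 1-phosphate from endothelium, ranged from 63.4 to 175 (median 91.9) and from 41.0 to 84.7 (median 58.5), a difference of -0.66 (SE 0.20).

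The others were *Pitpnm3*, a membrane phosphatidylinositol transfer protein, at -0.73 (SE 0.20), *Drc3*, of the ciliary dynein regulatory complex, at -0.73 (SE 0.21), *Plxnb3*, a semaphorin receptor, at -1.19 (SE 0.36), *Tbc1d2b*, a Rab GTPase activator, at -0.83 (SE 0.26), *Yjefn3* at -0.65 (SE 0.20), and the zinc finger regulators *Prdm11* and *Zbtb25* at -0.63 (SE 0.19) and -0.64 (SE 0.21). In all 10 the highest 3 M library was 3M replicate 6, and without it the differences were -1.04 to -0.42, against -1.46 to -0.63 with it.

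The same 20 genes were read in other libraries. The 5 M and 14 M hearts entered the spread from which the 20 were chosen but not their 8 M minus 3 M difference, and skeletal muscle entered neither. Between 14 M and 5 M hearts, 7 of the 10 higher genes and 6 of the 10 lower genes had a higher mean at 14 M, against 52.8% of all tested genes. Their median 14 M minus 5 M differences were 0.07 and 0.05. In skeletal muscle of the same mice 4 of the 10 higher and 3 of the 10 lower genes had a higher mean at 8 M, against 50.0% of the heart genes measured there. Neither set leaned in its own direction in both readings. Skeletal muscle itself had 0 genes with an adjusted p under 0.05 by limma between 8 M and 3 M and 347 at an unadjusted p under 0.05, of 17430 tested.

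**Figure D3:**
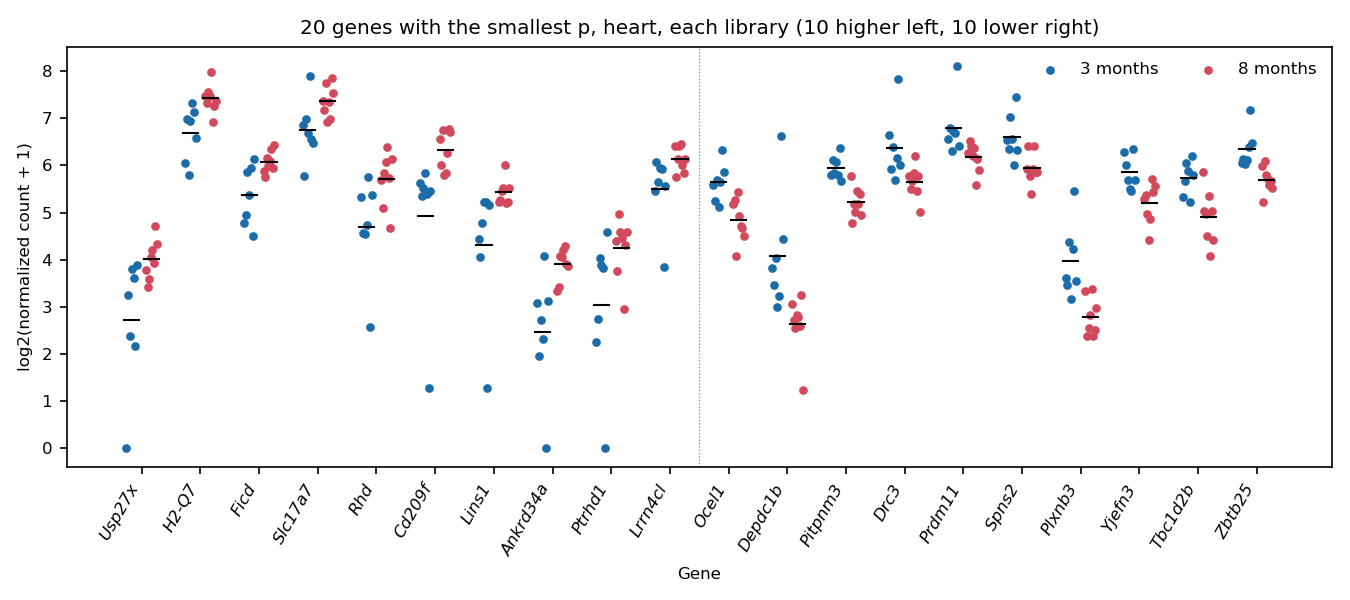
Levels (y, log2 of normalized count + 1) of the 10 genes higher (left) and 10 lower (right) at 8 M with the smallest p (x), each point 1 heart library at 3 M (blue) or 8 M (red) and black bars the means. The single 3 M point far from the others, low at the left and high at the right, is 3M replicate 6 in *Cd209f*, *Lins1*, *Rhd*, *Lrrn4cl*, *Depdc1b*, *Prdm11* and *Zbtb25*.

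The ranges of the 2 ages were disjoint in 1 of 15842 genes (0.00631%). It was *A130014A01Rik*, a long non-coding RNA from a bidirectional promoter (chromosome 8, 120101582 to 120103904, plus strand), named after its values were seen. It ranged from 0.702 to 16.9 at 3 M (median 14.2) and from 18.1 to 31.9 at 8 M (median 21.3), a difference of 1.19 (SE 0.34), or 0.76 without 3M replicate 6, which held the 0.702. The exact permutation test gave p = 0.000155, the smallest that 6435 splits of 7 and 8 libraries can give, and its adjusted p by limma was 0.99985. Disjoint ranges, for which the gene was named, by themselves put the exact p at or near that limit. The exact p therefore adds no support. In skeletal muscle *A130014A01Rik* differed by -0.25 (SE 0.28).

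Most genes that are higher late in life also had a higher mean at 8 M than at 3 M, while the count for those lower late moved with single libraries. They were chosen on the contrast of 20 M and 26 M with 5 M and 14 M, whose means use no library of 3 M or 8 M, although those 15 entered the filter and the residual spread of the fit, and 132 genes had an adjusted p under 0.05 by limma (0.833%), 107 higher and 25 lower late. Of the 107, 81 (75.7%) had a higher mean at 8 M than at 3 M, against 55.9% of all tested genes, and their median difference was 0.17 against 0.03. At an unadjusted p under 0.05, 9 of the 107 (8.41%) were higher and 0 lower, against 2.05% and 1.08% of all genes. Of the 25 lower late, 14 (56.0%) had a higher mean at 8 M, with a median of 0.00 and 0 genes at an unadjusted p under 0.05. That count was 8 (32.0%, median -0.04) without 3M replicate 6 and 8 to 13 over the single omissions. Without 3M replicate 6 the count of the 107 was again 81, beside 50.0% of all genes, and across the 15 single omissions it was 77 to 84. These genes share the same 15 libraries, so their count is a description of them.

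The 9 were named by their unadjusted p under 0.05, after their values were seen, so a p on the same values adds no support. *Egln3*, the prolyl hydroxylase PHD3 that marks hypoxia-inducible factor for destruction, ranged from 443 to 891 at 3 M (median 618) and from 717 to 1070 at 8 M (median 825), and reached medians of 1081 at 20 M and 1111 at 26 M. Its 8 M difference was 0.48 (SE 0.16; exact permutation test, two-sided, p = 0.00544; adjusted p = 0.99985), and it was 0.40 to 0.57 when each library was left out. *Ano5*, a muscle protein of the anoctamin family of membrane repair, had medians of 75.7 and 139 with ranges of 34.4 to 313 and 104 to 202, a difference of 0.75 (SE 0.28), and medians of 246 and 238 at 20 M and 26 M.

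*Ccl12*, a chemokine that draws monocytes, ranged from 0 to 11.8 at 3 M (median 5.63) and from 4.68 to 18.8 at 8 M (median 12.6), a difference of 1.17 (SE 0.45), with medians of 34.8 and 28.8 at 20 M and 26 M. *Ms4a6d*, a membrane protein of macrophages, had medians of 20.6 and 28.5 and differed by 0.79 (SE 0.35), and by 0.38 in the lowest of the 15 single omissions. *Vgll2*, a cofactor of TEAD factors in muscle, had medians of 2.96 and 6.80 and differed by 1.10 (SE 0.50), with a median of 23.6 at 26 M. The remaining ones were *Gdf15*, given above, *Gm4951* at 0.65 (SE 0.21), *2900052N01Rik* at 1.09 (SE 0.33) and *Gm40457* at 0.70 (SE 0.32). In each of the 9 the ranges at 3 M and 8 M overlapped.

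**Figure D4:**
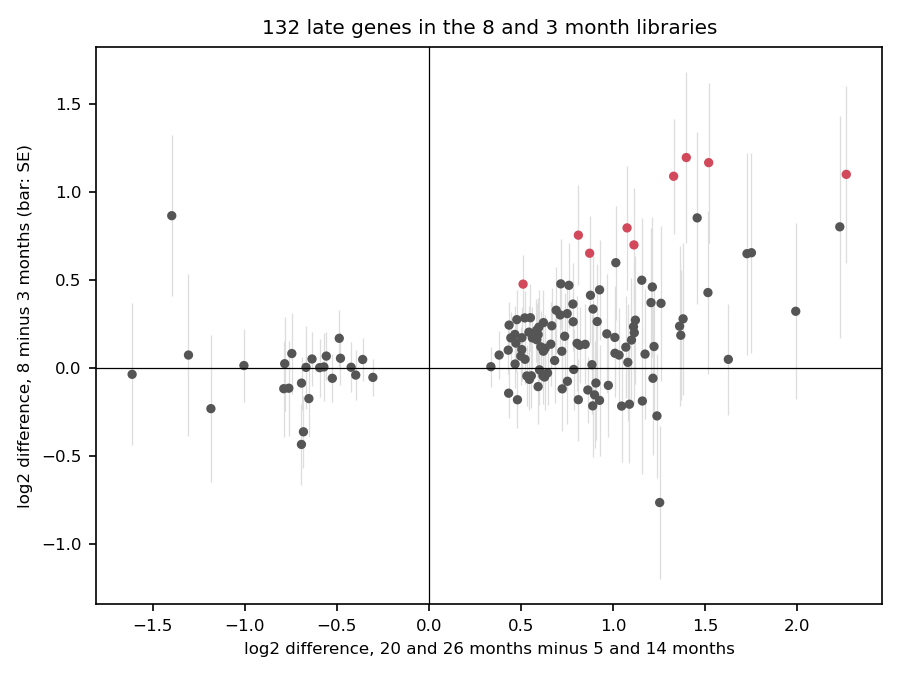
Differences between 8 M and 3 M (y, log2, with SE bars) of the 132 late genes against their difference of 20 M and 26 M from 5 M and 14 M (x, log2), each point 1 gene, red for an unadjusted p under 0.05 between 8 M and 3 M. Of the 107 genes on the right 81 lie above 0, and the 25 on the left lie on both sides of it.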

How the data were processed

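RNA of pulverised hearts was sequenced from oligo-dT selected mRNA as single reads after PCR without molecular identifiers, so PCR copies count as reads and errors from counting alone would be too small. What the authors deposited for each organ is a signal, namely reads per gene scaled by the size factors of DESeq2. Reads were aligned to GRCm38 with HISAT2 2.1.0 after bcl2fastq 2.20 and counted in R 3.5.1 with GenomicAlignments, per the submitters' processing notes and the study's methods, which state a forward strand setting for the alignment; that of the counting is not given in the sources used here. In each of the 45 heart libraries the step between low values gave whole reads, to within 0.01, for 100% of the genes.

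The fit took genes that reached 10 normalized counts in 5 or more of the 45 heart libraries, as log2(value + 1), in limma 3.58.1 (R 4.3.3) with trend and 1 mean per age. The contrast 8 M minus 3 M was two-sided, adjusted by Benjamini-Hochberg over all tested genes at 0.05, with 95% intervals; fold changes of low genes are understated by the pseudocount. Single genes also had exact permutation tests over 6435 splits. These add no support where the gene was named by its p or by its disjoint ranges. The code of the fit was run on simulated counts drawn independently for each library. These lacked the sets and the odd library seen here, so that run gives no power or error rate for these data. Named were the 10 genes of smallest p in each direction with a symbol that is no predicted model, up to 4 members per list at an unadjusted p under 0.05, and fixed genes (*Myh6*, *Myh7*, *Nppa*, *Nppb*, *Atp2a2*, *Pdk4*, *Cpt1b*, *Col1a1*, *Col3a1*, *Postn*, *Cdkn1a*, *Cdkn2a*, *Dbp*, *Arntl*, *Per2*, *Hbb-bs*, *Mki67*, *Cd74*). The age comparison, gene lists and named genes were chosen with earlier results of these data known, and the germ cell markers after the principal components were seen. Of the tested oxygen transport genes, 2 are counted with the list but are not reported singly here. Positions are from the GENCODE annotation of GRCm38. Replicate numbers follow the order of the samples. Alternatives were edgeR 4.0.16 (TMM), DESeq2 1.42.0, other filters, pseudocount and scaling, suffix b, sets of mice by the first principal component of heart or muscle, depth, library weights, the 2 ages alone and each library left out. The skeletal muscle table was fitted alike and the liver table only compared for shared reads; other organs and qPCR were not used here.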

Additional observations from a re-analysis of the deposited data

Results flagged for a closer look

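Among the 76 age groups of named genes examined for a lone extreme library, 10 were marked, or 13.2%. In these 10 groups 1 library lay farther from its nearest neighbour than the 95% limit of Dixon's test allows for that group size. The 76 include the groups of *Cpt1b*, which has no reads and so cannot be marked. That limit marks about 1 in 20 groups by chance only where groups are unselected and independent. Here the groups share the same libraries, and every marked gene except *Nppb* was named by its small p on these values. The 13.2% therefore cannot be compared with that rate. Of the 10, 7 were 3M replicate 6. In that library *Rhd* was at 4.91 normalized counts against 22.4 to 53.1 in the other 3 M hearts, *Cd209f* at 1.40 against 39.8 to 56.3, *Lins1* at 1.40 against 15.6 to 36.5 and *Lrrn4cl* at 13.3 against 43.2 to 66.8. It was at the high end for *Depdc1b*, 97.5 against 6.91 to 20.7, *Prdm11*, 276 against 78.5 to 111, and *Zbtb25*, 143 against 64.5 to 88.3. The other 3 were at 8 M: *Lins1* at 63.2 in 8M replicate 8 against 36.1 to 44.9, *Depdc1b* at 1.36 in 8M replicate 6 against 4.88 to 8.45, and *Nppb* at 477 in 8M replicate 1 against 962 to 1493.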

How the results depend on the processing

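The count of 0 genes at an adjusted p under 0.05 was the same under all 28 alternatives. The share at an unadjusted p under 0.05, 3.12% of the genes tested, became 1.34% (212 genes) in a fit of the 2 ages alone, 3.72% of 29918 genes without a filter (672 higher and 442 lower), 2.19% (249 of 11360) with a filter at 50 normalized counts, 6.51% with the sets of mice from heart as a block, 8.40% (1331) with library weights and 7.13% (1130) with suffix b and those sets together, the only alternative chosen after seeing the data. It was 1.48% (without 3M replicate 6) to 5.78% (without 3M replicate 5) when each library was left out. Intervals within 1 log2 unit numbered 19538 without a filter. Late genes, 132, numbered 87 without a filter, 219 with DESeq2, 539 with the sets from heart, 406 with library weights and 587 with suffix b and the sets. The median residual SD was 0.53, and 0.34 with the sets from heart, which were drawn from the same values. Of 1386 differences of 50 named genes under alternatives, 60 in 13 genes changed sign, all of genes with differences near 0. *Myh6* was 0.089 under quantile normalization, 0.022 with the sets from heart and 0.021 with suffix b added to them. With library weights *Atp2a2* was -0.41, *Col3a1* -0.13, *Postn* -0.065, *Cdkn2a* -0.34, *Per2* 0.19, *Mki67* -0.35 and *Cd74* -0.18. *Cdkn2a* was -0.15 under quantile normalization, and with the sets from skeletal muscle *Mki67* was -0.018, *Cd74* -0.023 and *Col3a1* -0.010. *Col3a1* was also -0.0072 with edgeR, -0.0046 with DESeq2, -0.0050 with suffix b and -0.0027 with depth. Over the 15 single omissions the ranges were -0.24 to 0.076 (*Myh6*), -0.016 to 0.18 (*Myh7*), -0.47 to 0.065 (*Nppa*), -0.20 to 0.038 (*Nppb*), -0.17 to 0.19 (*Atp2a2*), -0.25 to 0.071 (*Pdk4*), -0.021 to 0.14 (*Col1a1*), -0.084 to 0.060 (*Col3a1*), -0.18 to 0.47 (*Cdkn2a*), -0.20 to 0.084 (*Per2*), -0.17 to 0.16 (*Mki67*) and -0.077 to 0.16 (*Cd74*). The causes were not tested. No paired analysis was possible because the ages are different mice and no label pairs them. Under 30 normalized counts, most intervals reached beyond 1 log2 unit from 0, and the parts of read depth and of variation between mice in this were not tested.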
